A study of Arabidopsis thaliana with 2 samples.

Results

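The genes described here encode subunits of the RNA exosome of Arabidopsis thaliana, together with RRP41L, a gene named for its likeness to the subunit RRP41. The list held 10 loci, for RRP41L, RRP41, RRP42, RRP43, RRP45a, RRP45b, RRP46, RRP4, CSL4 and RRP44. A locus entered when the array annotation paired a probe set with that gene alone, which was the case for 6 of the 10, out of 13355 genes with such a probe set. The 6 were RRP41L, RRP41, RRP42, RRP43, RRP46 and CSL4, each with 1 probe set. RRP45a, RRP45b, RRP4 and RRP44 were not analysed here. The group was chosen by function, but selected on the hypoxia over control ratio of RRP41L, the value that drew attention to it on these same arrays, so its ratios are a description and carry no test.

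The RNA exosome is a barrel-shaped complex that trims or destroys RNA from the 3′ end. Its body is a ring of subunits related to the bacterial enzyme RNase PH, and a cap of RNA-binding subunits guides RNA into the channel. In the nucleus it shortens precursors of ribosomal RNA and removes by-products of their maturation and many noncoding transcripts. In the cytosol it works with the Ski complex to degrade messenger RNA. RRP44, a hydrolytic nuclease, provides activity in yeast, and in Arabidopsis the ring subunit RRP41 has itself kept phosphorolytic activity.

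Mesophyll protoplasts, which are wall-less cells of the green leaf tissue, were made from pooled leaves of 36 plants and split into equal numbers of cells for 1 control array and 1 hypoxia array. The control group spent 6 h in a dish under a layer of mannitol buffer 0.6 mm deep (10 ml), and the hypoxia group spent 6 h at the same light in a tube filled 25 mm deep (2 ml). The labels name no genotype or plant age. With 1 array per group no difference below has a replicate check, and oxygen, vessel, cell density and array cannot be told apart. The stated purpose of the series was to find hypoxia-induced genes of mesophyll cells.

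The floor was an intensity of 165.7, the 40th percentile of the scaled values of both arrays pooled. Above it were 57.8% of the control array's probe sets and 62.2% of the hypoxia array's. The pooled share above the floor is fixed by that choice, so these values do not measure depth, the signal over background. Ratios are hypoxia over control after both arrays were scaled to a common median, and intensities are printed as deposited. All 5 mesophyll markers with a probe set, of 9 listed, were above the floor on both arrays, and their summed intensity was 72873 in control and 133282 in hypoxia. Guard cell markers, 2 of 4, summed to 328 and 503, and the phloem marker SWEET11, 1 of 3, went from 212 to 1020. None of these markers was listed at 0, the 3 epidermis markers were not analysed here, and the part of other cell types in the results below was not tested. The 3′ over 5′ ratio of the array's actin control was 4.96 in control and 4.48 in hypoxia in one set of probe sets, and 1.33 and 1.39 in another.

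All 6 exosome genes were lower on the hypoxia array, by 2.09-fold to 7.92-fold, and RRP41L differed most. All 6 lay above the floor on both arrays. In cells as a bulk sample, fewer cells that express a gene and less RNA per cell cannot be told apart.

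RRP41L (AT4G27490), an RNase PH-type protein known in Arabidopsis for a role in cytosolic messenger RNA decay, gave a signal of 1414 in control against 172.9 in hypoxia. The hypoxia value stood at 1.06 times the floor, and the control value at 8.40 times. Hypoxia was thus 7.92-fold lower, a log2 ratio of -2.99. Of the 6648 genes whose control and hypoxia signals both exceeded the floor, this was the 10th lowest ratio.

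RRP41 (AT3G61620), the ring subunit with phosphorolytic activity, went from 2283 in control to 875.5 in hypoxia. Both values were well clear of the floor, and the log2 ratio was -1.34, or 2.52-fold lower. RRP42 (AT3G07750), a ring subunit without known catalytic activity of its own, went from 1139 to 235.9, a log2 ratio of -2.22 (4.67-fold lower). Its hypoxia value was 1.45 times the floor, the nearest to it after RRP41L.

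RRP43 (AT1G60080), also a ring subunit, went from 2248 to 479.8, with a log2 ratio of -2.18, or 4.54-fold lower. RRP46 (AT3G46210), another member of the ring, went from 1073 to 378.5, with a log2 ratio of -1.46, or 2.74-fold lower. The ring genes with a probe set, RRP41L counted among them, were thus lower in 5 of 5 cases, against 52.9% of all measured genes. Their median log2 ratio was -2.18. With centring on SAND, TIP41 and UBC21 the median was -1.57, and that of all measured genes 0.41. Under it 3 of the 5 were at least 2-fold lower, against 4.31% of all measured genes.

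CSL4 (AT5G38890) encodes a cap subunit with an S1-type RNA-binding domain, which Arabidopsis plants can do without. Its intensity was 3539 in control and 1642 in hypoxia. The log2 ratio of -1.06, or 2.09-fold lower, was the smallest difference of the 6.

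**Figure D1:**
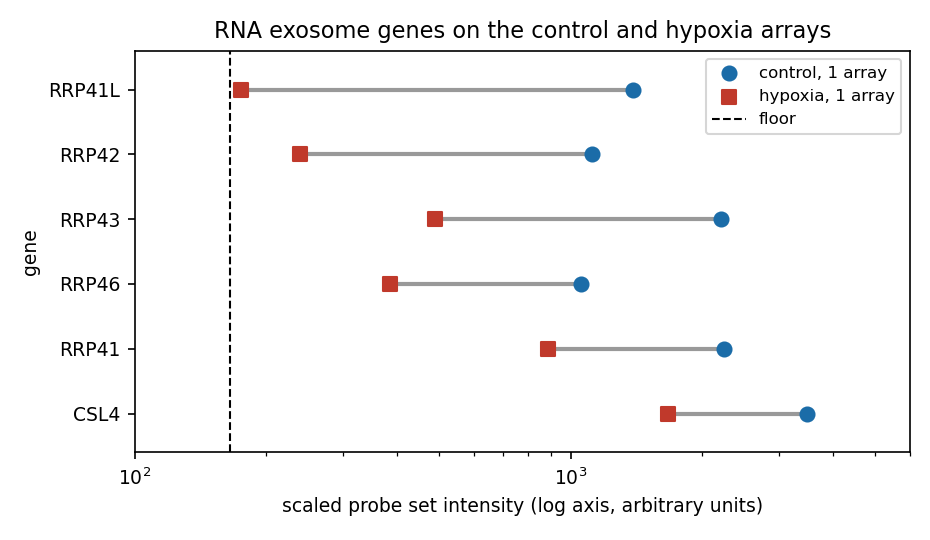
Scaled intensity of the 6 exosome genes in control (circles) and in hypoxia (squares), 1 array each, on a log axis in arbitrary units, with the floor dashed. Every square lies to the left of its circle, and the square of RRP41L lies next to the floor at 1.06 times its value.

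At least 2-fold lower in hypoxia were 6 of 6 exosome genes, and 0 were at least 2-fold higher. Over all 7972 genes above the floor on at least 1 array, 14.5% were at least 2-fold lower and 13.0% at least 2-fold higher. The contrast is the one on which the list was proposed, so nothing is read from this difference. The background leaned more to lower values among genes of similar brightness: of 3335 genes with both signals over the floor and within the range of mean log2 intensity of the 6, 19.0% were at least 2-fold lower and 11.4% at least 2-fold higher. The median log2 ratio was -1.82 for the 6 genes, -1.46 for the 5 without RRP41L and -0.07 for all measured genes.

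In the order of all 7972 measured ratios from the lowest, RRP41L was 12th, RRP42 84th and RRP43 94th, all within the lowest 1.18%. Of these ratios 1324 are bounds, with the signal of 1 array at the floor, so the places are not exact. RRP46 was 445th and RRP41 581st, at 5.58% and 7.29% of the order. CSL4 was 1036th, at 13.0%, close to where the ratios come within 2-fold.

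**Figure D2:**
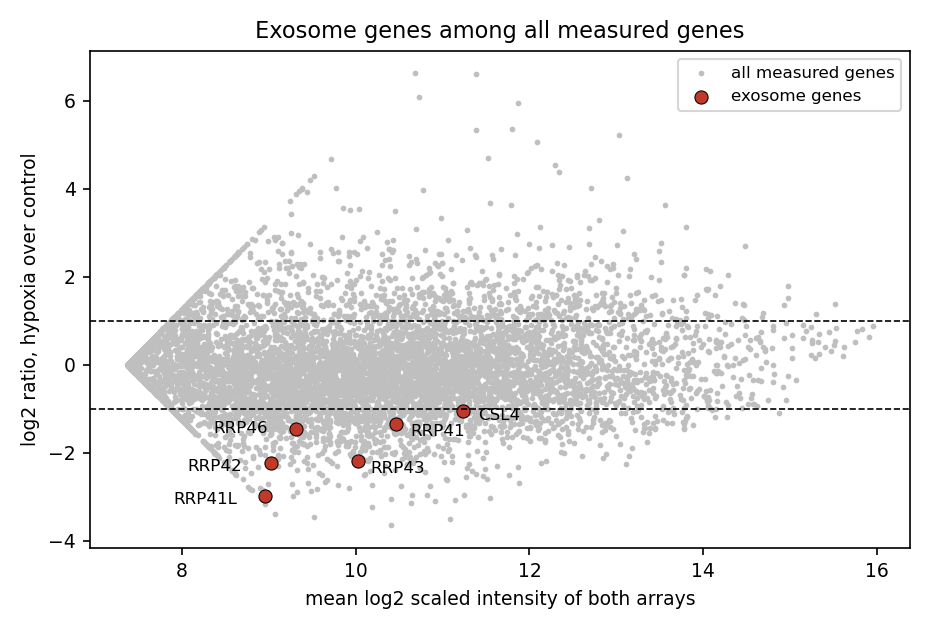
Log2 ratio of hypoxia over control against mean log2 scaled intensity for all 7972 measured genes (grey) and the 6 exosome genes (red), with dashed lines at 2-fold. The exosome genes lie in the middle of the intensity range and below the lower line, from CSL4 at -1.06 to RRP41L at -2.99.

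The 6 ratios were spread over 1.92 on the log2 scale, with an SD of 0.72 among genes, or 0.52 without RRP41L. Probe noise was taken from 74 other genes with 2 probe sets above the floor. Their paired ratios differed with an SD of 0.49, which is 0.34 for a single ratio. This is noise between probe sets on the same arrays, and it holds no spread between cell preparations. The widest distance, 1.92, was between RRP41L and CSL4, and since RRP41L drew attention by its ratio, its distances are given with no threshold. RRP42 and RRP43 lay 0.04 apart, and RRP41 and RRP46 lay 0.12 apart.

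Proteins that sit on or beside the exosome, outside the 10 loci, gave a measured ratio at 6 of 8 loci. Hypoxia was at least 2-fold lower for 2 of the 6, against 14.5% of all measured genes, and at least 2-fold higher for 0. Ratios were below 0 for 5 of the 6, against 52.9% of all measured genes. With centring on SAND, TIP41 and UBC21 they were below 0 for 3, against 27.0% of all measured genes. The median went from -0.50 to 0.10, where that of all measured genes was 0.41. RRP40 alone stayed at least 2-fold lower there, at -1.04, against 4.31% of all measured genes. RRP40 (AT2G25355), a cap subunit like CSL4, went from 1206 to 372.7, a log2 ratio of -1.65. With RRP40 added to the 6 exosome genes, RRP41L counted among them, 7 of 7 were at least 2-fold lower. Under other settings the count was 6 with loess or centring on 7 reference genes, against 11.5% and 9.82% of all measured genes. It was 4 with the floor at percentile 60, against 13.1%, or with centring on SAND, TIP41 and UBC21, against 4.31%. At the percentile 60 floor 5 of the 7 ratios were bounds, so genes not counted may also be at least 2-fold lower. RRP6L2, a nucleolar exonuclease that acts on ribosomal RNA precursors, went from 2574 to 1002, a log2 ratio of -1.31. MPP6, whose yeast counterpart assists the nuclear exosome, had -0.77. RRP6L1 and RRP6L3, related to RRP6L2, had -0.23 and 0.16 at intensities of at most 280.5. The C1D family gene AT5G25080 had -0.12.

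Cofactors that bring RNA to the nuclear exosome were measured for 2 of 6 loci. SOP1, a zinc finger protein of the nuclear exosome pathway, had 2 probe sets. The brighter one went from 2856 to 5585, a log2 ratio of 1.01, and the other from 981.7 to 1508, at 0.67. Both were above 0, and the brighter was just past 2-fold. It came within 2-fold with values as deposited, at 0.97, and with hybridisation control centring, at 0.51, as did the mean over both probe sets, at 0.84. ZCCHC8B, a zinc knuckle protein of a nuclear exosome targeting complex, had -0.27.

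The cytosolic partners of the exosome were measured for 5 of 6 loci, and 5 of 5 had ratios below 0, against 52.9% of all measured genes. With loess 4 were below 0, against 48.7% of all measured genes. With centring on SAND, TIP41 and UBC21 3 were, against 27.0%, and 0 were at least 2-fold lower, against 4.31%. SKI2, the helicase that feeds RNA to the cytosolic exosome, went from 1439 to 552.5, a log2 ratio of -1.33, and was the 1 gene of this list at least 2-fold lower. RIPR and RST1, which join the Ski complex to the exosome in Arabidopsis, had -0.92 and -0.38. SKI3, the scaffold of the complex, had -0.74, and SKI7, which also links Ski and exosome, had -0.21.

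The opposite route of messenger RNA decay starts at the cap and runs from the 5′ end. Of its 14 listed genes 5 were measured, and 5 of 5 lay within 2-fold, with a median of -0.47. With centring on SAND, TIP41 and UBC21 the median was 0.13, and that of all measured genes was 0.41. The 5 included LSM1A at -0.73 and LSM1B at -0.36, from the ring that marks RNA for decapping. The others were the helicases RH12 at -0.63 and RH6 at -0.47, and the decapping activator PAT1 at -0.07. Deadenylases and CCR4-NOT, which shorten the poly(A) tail, also had 0 of 4 measured genes past 2-fold. CCR4a was at -0.74, NOT3 at -0.63, NOT1 at -0.38 and CCR4b at -0.16. Of all 7972 measured genes 5779 lay within 2-fold, so neither count is a result about these lists. With hybridisation control centring 2 of 5 decapping and 2 of 4 deadenylase genes were at least 2-fold lower, against 31.0% of all measured genes.

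The remaining lists held few measured genes. TRL, a nucleotidyltransferase that tags ribosomal RNA precursors for the exosome, went from 597.2 to 290.1, a log2 ratio of -0.99 that lies at the edge of 2-fold. In nonsense-mediated decay, UPF2 had -0.64 and UPF3 had 0.58. The mitochondrial polynucleotide phosphorylase gene AT5G14580, whose product is built from RNase PH-like domains, went from 464.4 to 124.3, below the floor in hypoxia, and was at least 2.76-fold lower.

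Over the 8 other lists together, 26 of 53 loci were measured, 4 were at least 2-fold lower and 1 at least 2-fold higher. The 4 are 15.4% of the 26, near the 14.5% of all measured genes, so the count is no result about these lists. Their median log2 ratio was -0.55, and that of the exosome genes lay 1.27 below it. The exosome median counts RRP41L, on whose ratio the group was selected, and was -1.46 for the 5 genes without it. The difference of 1.27 was not tested. It was also 1.27 under each of 3 other array centrings, which move all genes alike, and 0.63 when the floor was raised to the 60th percentile. At that floor 4 of the 6 exosome ratios were bounds, and 20 of the 26 other decay genes were measured.

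**Figure D3:**
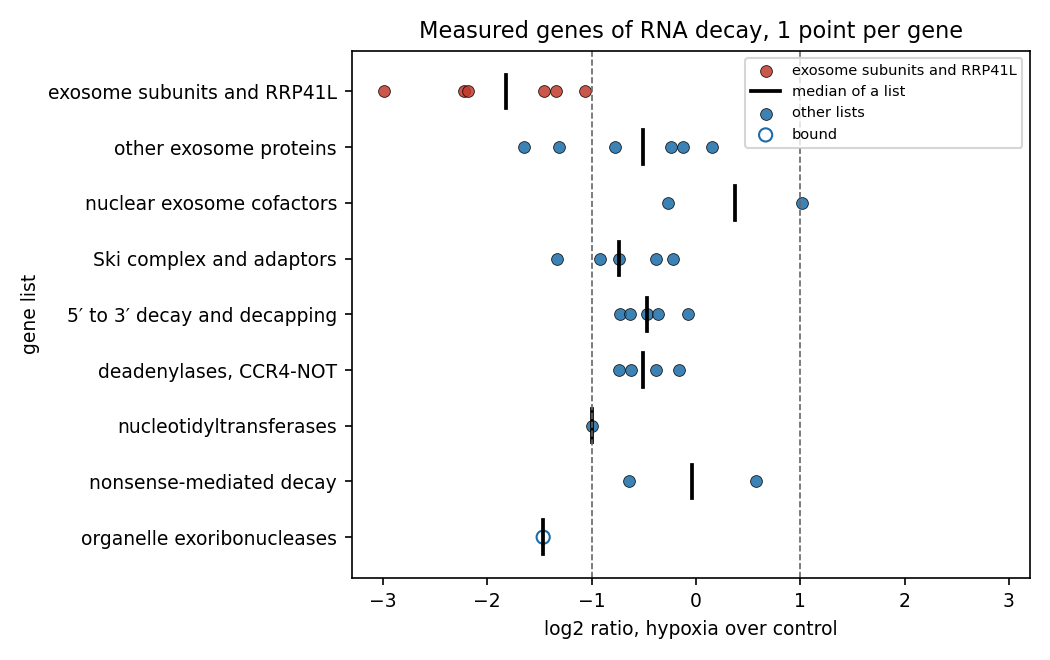
Log2 ratio of hypoxia over control for each measured gene of the exosome list (red) and of 8 other lists of RNA decay genes (blue), with black bars at list medians, dashed lines at 2-fold and an open circle for a bound. The 6 exosome genes lie to the left of -1, while the decapping and deadenylase genes lie between -0.74 and -0.07.

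With 2 arrays, the likeness of another gene to RRP41L can be measured only by how close its ratio is. Among the same 6648 genes, the nearest on the lower side were AT5G39850, a gene for a protein of the small ribosomal subunit, 0.03 below it, and AT3G61930, 0.07 below it. On the higher side were AT4G37295 and the chitinase gene ChiC, 0.01 and 0.02 above it. These distances are far under the probe noise of 0.49, so the order among them has no meaning.

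The direction of all 6 genes was the same under the 12 alternative settings, while the count past 2-fold ranged from 3 to 6. The share of all measured genes at least 2-fold lower ranged from 4.31% to 31.0%. The count was 3 with centring on SAND, TIP41 and UBC21, commonly used reference genes. This put RRP46, RRP41 and CSL4 at -0.85, -0.73 and -0.45. In the setting of the text SAND, TIP41 and UBC21 themselves differed, with log2 ratios of -0.91, -0.61 and -0.03. The centring used their median, which is the ratio of TIP41. That setting, chosen after the data were seen, brought the median of all genes to 0.41, with 4.31% of them at least 2-fold lower. When the floor was raised to the 60th percentile, RRP41L, RRP42, RRP43 and RRP46 were under it in hypoxia, and their log2 ratios became bounds of -1.045, -0.73, -1.71 and -0.65. RRP41L and RRP43 were at least 2-fold lower under all 12 alternatives, RRP41 and RRP42 under 11, RRP46 under 10 and CSL4 under 9. The floor at percentile 20, the mean over probe sets, gene-specific probe sets alone and genes above the floor on both arrays left every ratio unchanged. That was fixed in advance, since each gene had 1 gene-specific probe set, above the floor on both arrays.

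**Figure D4:**
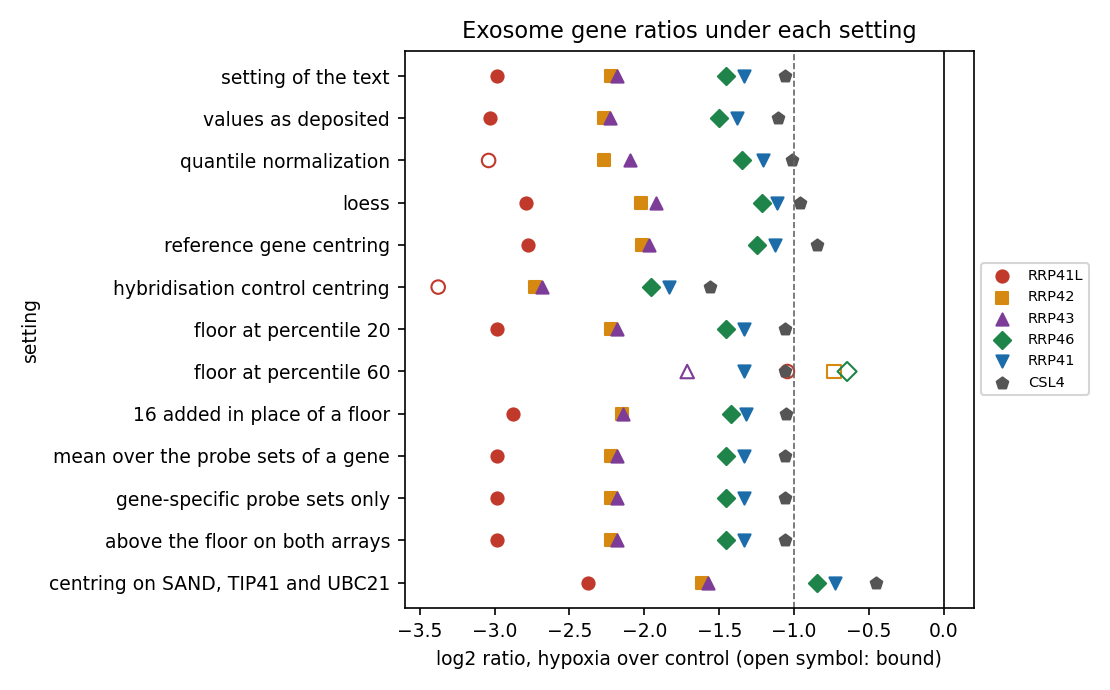
Log2 ratio of hypoxia over control for the 6 exosome genes under the setting of the text and 12 alternatives, with open symbols for bounds, a dashed line at 2-fold and a solid line at 0. All symbols lie to the left of 0, from -3.38 for RRP41L with hybridisation control centring to -0.45 for CSL4 with centring on SAND, TIP41 and UBC21.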

How the data were processed

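Probe set intensities on a linear scale, 1 column per array, were deposited by the authors. GCOS 1.0 is named per the submitters' processing notes, while the sources used here give neither its settings nor the genome build. With 2% of probe sets trimmed at either end, the mean was 1500.1 for control and for hypoxia, so each array had been scaled as a whole. No detection calls were used.

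Of 22810 probe sets, 64 controls were left out. GEO's older platform annotation paired 13513 with 1 gene, of which 13436 matched the RefSeq gene table of TAIR10.1 by Entrez identifier, giving 13355 genes. RRP41, RRP41L, LSM1A, LSM1B, RST1 and UPF3 are named as in that annotation, and the names of other decay genes come from general knowledge of the loci. No coordinates or sequences were used.

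Each array was brought to the geometric mean of the array medians (345 in control, 334 in hypoxia). Values under the floor were set to it before log2, and a gene took its brightest probe set. A gene was measured when above the floor on at least 1 array, and where 1 of the values was at the floor the ratio is a bound. No test was possible with 1 array per group. The calculation was tested on simulated data with noise smaller than the probe noise found here. Changes were planted only in genes with a control signal well above the floor. That checks the arithmetic and not the ratios of these arrays. Python 3.11.15, pandas 2.3.3 and statsmodels 0.14.6 were used.

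The members, the 8 other lists and the reference genes were chosen with earlier results of these arrays known. Named were all members, all measured genes of the other decay lists, and the 2 genes on each side of RRP41L in the order of ratios. A planned search for promoter motifs was not run. Alternatives were values as deposited, quantile normalization, loess with a span of 0.3, centring on reference genes or on 18 hybridisation controls, floors at percentiles 20 and 60, 16 added in place of a floor, the mean over probe sets, gene-specific probe sets alone, and genes above the floor on both arrays. Centring on 3 reference genes was added later.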

Additional observations from a re-analysis of the deposited data

How the results depend on the processing

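No paired analysis was possible because each group had 1 array, and no replicate could be left out. A value was taken as moved when it changed by more than the probe set SD of 0.34, and a count when it changed by over 1.5 times. With hybridisation control centring the log2 ratio of RRP41L was -3.38 (a bound), the exosome median -2.32 and the count of other decay genes at least 2-fold lower 13. When the floor was the 60th percentile these were -1.045 (a bound), -1.05 and 2, and with centring on SAND, TIP41 and UBC21 they were -2.38, -1.21 and 2. Of all measured genes, 31.0%, 13.1% and 4.31% were at least 2-fold lower under these settings, in that order. The last setting also left 3 exosome genes at least 2-fold lower. Under it the median of the other decay lists was 0.06 and that of all measured genes 0.41. In the setting of the text these medians were -0.55 and -0.07. The sign of the first depends on the scaling, while it lay below the second in both settings. The floor alternatives changed the number of all genes past 2-fold from 2193 to 3677 (percentile 20) and 1318 (percentile 60), because more or fewer dim values were kept. Of the genes past 2-fold, 52.7% were lower in the setting of the text, 37.3% with centring on 7 reference genes, 82.3% with hybridisation control centring, 38.2% after lowering the floor to percentile 20, and 14.6% with centring on SAND, TIP41 and UBC21. Centring on 7 reference genes, hybridisation controls, and SAND, TIP41 and UBC21 moved the median of all genes by 0.18, -0.48 and 0.47. Apart from the floors, these moves follow from the shift that each centring applies to all genes. For RRP41L with hybridisation control centring the floor acted too, since its shifted hypoxia value fell under it. The hypoxia signals of RRP41L and RRP42, close to the floor, limit how exactly their ratios are known.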
